A study of Mus musculus with 4 samples.

Results

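The genes of protein folding in the endoplasmic reticulum (ER) and of the unfolded protein response were compared in colonic epithelial cells of control and *Bmal1* cKO mice during colitis. The list held 39 genes, taken from the deposited table by their symbols, out of 16015 genes listed there, and all 39 were found. All 39 reached the mean normalized count of 10 that was needed for the test. *Trib3*, *Derl3* and *Chac1* reached it only through the control libraries. The 39 genes fell into 16 chaperones and folding enzymes, 10 genes of ER-associated degradation, 6 sensors and transcription factors, and 7 genes of the arm driven by the factor ATF4. *Bmal1* encodes a core activator of the circadian clock. The cKO mice were *Villin-CreERT2;Bmal1 fl/fl*, in which tamoxifen, injected into the peritoneum on 5 consecutive days, switches on the Cre recombinase in cells that use the *Villin* promoter, which in the gut means the epithelium only. The controls, labelled WT, were *Bmal1 fl/fl* mice, and the sources used here do not say whether they received tamoxifen. The mice were littermates of C57BL/6 background, 2 to 4 months old. All 4 mice, 2 per group, drank 3% dextran sulfate sodium (DSS), which injures the colonic epithelium, over 5 days followed by 2 days of water, and the cells were taken on day 7 by EDTA and scraping, without a sort. The comparison held only mice that had been given DSS.

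Proteins that are secreted or placed in membranes fold in the ER, where chaperones hold unfolded chains, oxidoreductases form disulfide bonds, and lectins follow the sugar chains. When unfolded proteins build up, the sensors IRE1, ATF6 and PERK start the unfolded protein response. IRE1 splices the *Xbp1* mRNA and ATF6 is cleaved to a transcription factor, and the resulting factors raise chaperones and degradation genes, while PERK phosphorylates eIF2α, which slows translation in general but favours that of ATF4, the activator of amino acid and stress genes. In the colon the goblet cells, which make large amounts of mucin, and the plasma cells beneath the epithelium, which make antibody, are known for a high load on the ER.

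Levels are normalized counts, that is, reads per gene after division by a factor for library depth, and each library had between 10312791 and 14156639 reads on the listed genes. Values are given throughout in the order control mouse 1, control mouse 2, *Bmal1* cKO mouse 1 and *Bmal1* cKO mouse 2, and log2 fold changes are of the cKO against the control libraries on the log2(normalized count + 1) scale, on which a gene with few reads shows less than its true change. The test was limma over 13983 genes (two-sided, p adjusted after Benjamini-Hochberg, threshold 0.05), and SE is its standard error. Each gene's variance was drawn toward a trend over all tested genes. Beyond that, p-values measure only the spread between 2 mice per group. The targeted gene, listed as *Arntl*, had 358, 342, 341 and 289 normalized counts. Both cKO mice lay below both controls, but the log2 fold change of -0.16 (SE 0.14, adjusted p = 0.389 by limma) did not pass the test, nor did the corrected one described below, at -0.40 (adjusted p = 0.0771). Sums over a whole gene do not show whether the floxed exon was lost, so these values do not check the deletion, and groups are named by their labels. Fold changes also followed base composition. Across 13975 genes Spearman's rho between log2 fold change and GC content was -0.611, and the median log2 fold change ran from 1.13 in the class of genes with the lowest GC content to -1.35 in the class with the highest. When each library was corrected by loess for exon length and GC content, rho was -0.016, and these corrected values are given below as well. In the mixture of cells, the summed goblet markers were 242560 and 491520 in the controls and 77282 and 110150 in the cKO mice, with 6 of 12 lower, and the summed leukocyte markers were 21431, 33952, 5895 and 5478, with 17 of 23 tested lower. The plasma cell markers summed to 65027 in control mouse 1 and to 4960.3, 3167 and 3084.5 in the other mice, so that library stood apart from the other control. The fibroblast markers summed to 17795, 3829, 589 and 691, with 8 of 10 lower, the endothelial markers to 2519, 631, 81.3 and 109, with *Emcn* at 0 in both cKO mice, and the smooth muscle markers to 1738, 1922, 18.5 and 35.1. The epithelial markers summed to 154000, 177560, 137830 and 144540, with 5 of 12 lower, 1 higher and a median log2 fold change of -0.44, which was 0.30 after the correction, with 5 higher by limma. *Epcam*, an epithelial adhesion molecule, stood at -0.0044 (adjusted p = 0.984), and *Krt18*, *Cdx1*, *Cdx2*, *Cldn3* and *Lgals4* fell as deposited, by 0.90 to 1.55 on the log2 scale. The absorptive colonocyte markers summed to 36166, 56247, 73854 and 101240, with 4 of 12 higher (*Slc26a3*, *Aqp4*, *Mal* and *Cldn8*) and 2 lower (*Car4* and *Scnn1b*) and a median log2 fold change of 0.08. Without *Aqp4*, the most abundant of them in the cKO mice, the sums were 30766, 51997, 43634 and 55275 and the groups overlapped. In such bulk samples fewer cells of a type and less RNA per cell cannot be told apart.

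The 39 genes took up 0.747% and 0.708% of the reads in the controls and 1.04% and 1.09% in the cKO mice. Of the 39, 17 were higher in the cKO mice, 9 were lower and 13 did not pass the test, where 29.0% of all tested genes were higher and 27.7% were lower (4059 and 3871 genes, or 3091 and 4885 when libraries were scaled by their totals, which moved the median of all genes to -0.26). Of the chaperones 11 were higher and 0 lower, of the degradation genes 5 were higher and 1 lower, of the sensors and factors 1 was higher and 3 lower, and of the ATF4 arm 0 were higher and 5 lower. After the correction by limma 7 chaperones were higher and 0 lower, 8 degradation genes were higher and 1 lower, 2 sensor genes were higher and 0 lower, and of the ATF4 arm 0 were higher and 3 lower. At an unadjusted p under 0.05 by limma, and by edgeR and DESeq2 on the reads, the chaperones that were lower and the ATF4 genes that were higher also numbered 0, where edgeR called 27.6% of all genes higher and 27.3% lower. The medians of the log2 fold changes were 0.61, 0.55, -0.10 and -2.07 in these arms, beside -0.04 over all tested genes. After the correction the medians were 0.42, 0.58, 0.17 and -1.37, beside -0.01 over all genes, so the order of the ATF4 arm below the others was kept and the sign of the sensors was not. The correction left 17 members higher, 4 lower and 18 that did not pass, where 18.4% of all genes were higher and 17.6% lower.

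**Figure D1:**
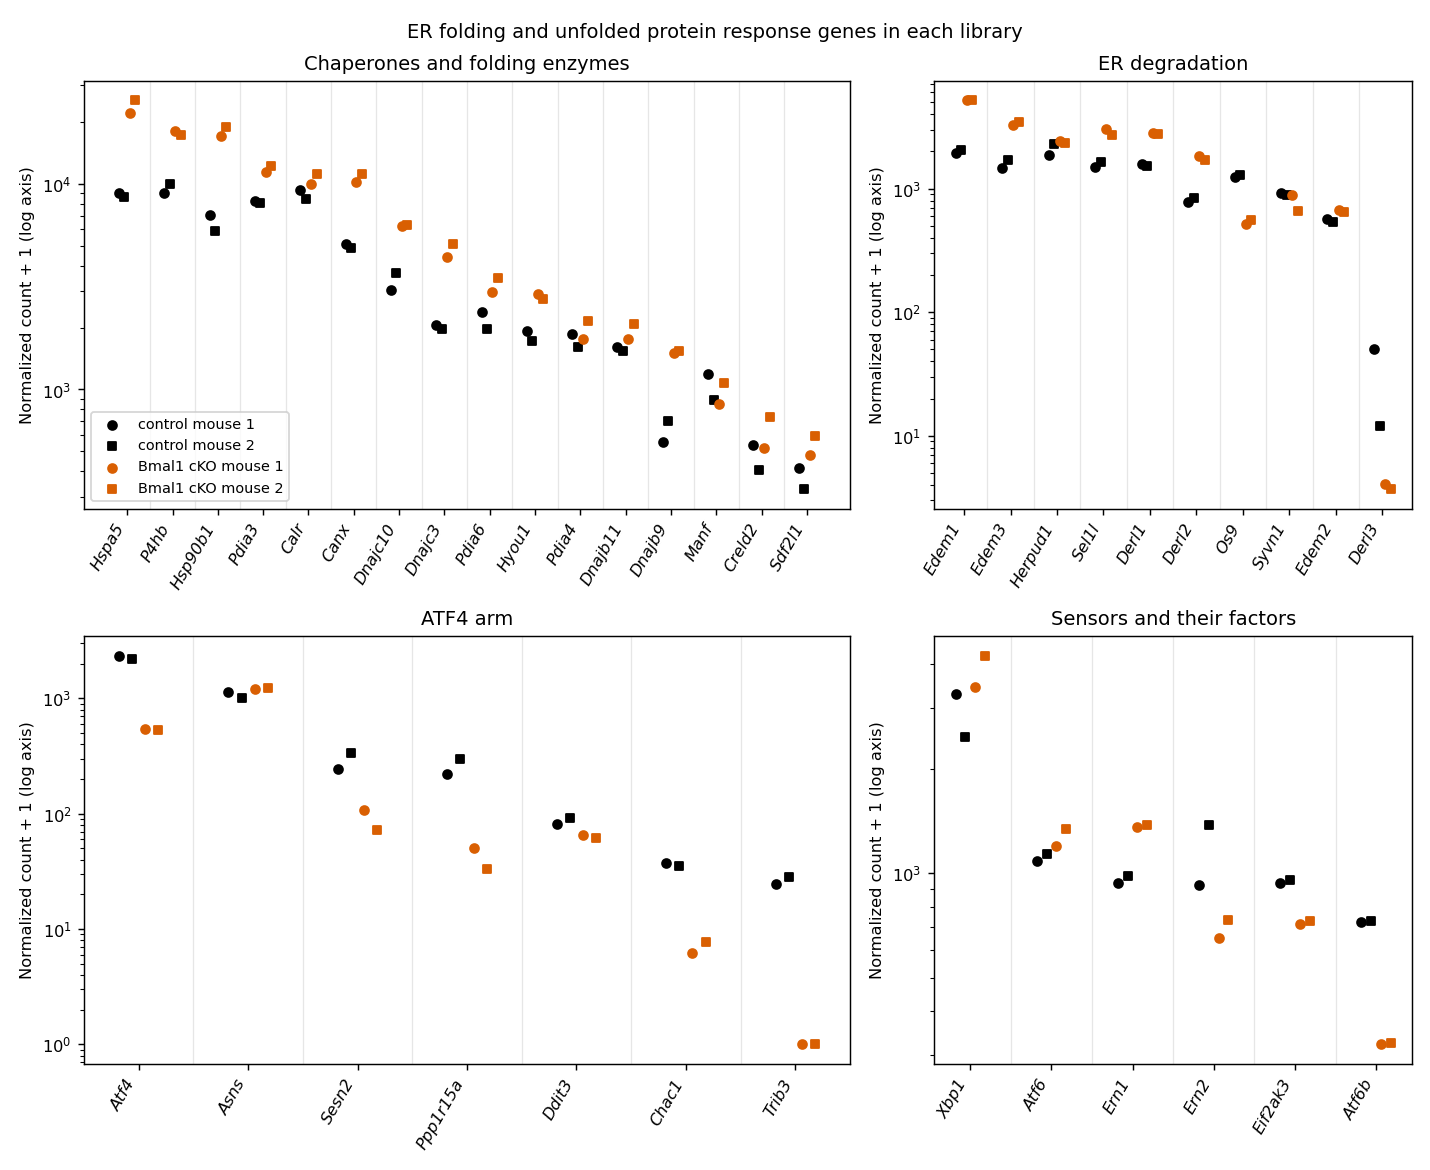
Normalized count plus 1 on a log axis for each of the 39 genes in the 4 libraries, with control mice in black, *Bmal1* cKO mice in orange, and circles and squares for mouse 1 and 2 of each group; the panels have different scales. *Hspa5*, *Hsp90b1* and *Edem1* lay higher in both cKO mice than in both controls, and *Atf4*, *Ppp1r15a* and *Trib3* lay lower in both.

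The promoters of several ER chaperones are known to carry the ER stress response element (ERSE), which is bound by NF-Y at its CCAAT end and by ATF6 or XBP1 at its CCACG end. RefSeq promoter windows of GRCm38.p6, from 250 bases before to 50 bases after the start, were matched for 34 of the 39 genes, and *Derl1*, *Manf*, *Hyou1*, *Atf6* and *Ern2* were not matched. The element, CCAAT and CCACG with any 9 bases between them, was searched on both strands and was in 39 of 32851 windows, or 0.119%, and in the windows of 9 members, of which 7 were among the 14 matched chaperones and 2 among the 9 matched degradation genes. The matches are shown because they mark the genes that the response is known to act on. Each is printed from its CCAAT end, with the letters fixed by the motif in capitals and the spacer in lower case.
Hspa5: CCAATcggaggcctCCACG
Hsp90b1, upstream match: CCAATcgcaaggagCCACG
Hsp90b1, downstream match: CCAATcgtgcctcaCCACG
Calr: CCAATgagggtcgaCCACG
Canx: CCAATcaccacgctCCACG
Pdia6: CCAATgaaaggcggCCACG
Dnajc3: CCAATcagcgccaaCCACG
Creld2: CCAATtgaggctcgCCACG
Syvn1: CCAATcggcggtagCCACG
Derl3: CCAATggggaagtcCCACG

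The distance of the match from the start ranged from 26 bases before it in *Syvn1* to 194 bases before it in *Hsp90b1*. The match of *Hspa5* lay at chr2:34772025-34772043 on the plus strand, 47 bases before the start. Those of *Hsp90b1* lay at chr10:86705638-86705656 and chr10:86705533-86705551, on opposite strands. The 250 bases before the start of both genes are printed below 5′ to 3′ along the gene, with the ERSE matches in capitals, because these were the chaperones with the largest log2 fold changes as deposited. After the correction *Sdf2l1*, *P4hb* and *Creld2* were above *Hspa5*.
Hspa5, chr2:34771840-34772089, plus strand: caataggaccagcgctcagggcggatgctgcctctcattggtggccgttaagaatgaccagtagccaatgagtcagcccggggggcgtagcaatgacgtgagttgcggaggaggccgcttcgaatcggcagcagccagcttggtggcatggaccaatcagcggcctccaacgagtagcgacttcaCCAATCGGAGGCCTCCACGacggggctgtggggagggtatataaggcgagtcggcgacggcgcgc
Hsp90b1, chr10:86705445-86705694, minus strand: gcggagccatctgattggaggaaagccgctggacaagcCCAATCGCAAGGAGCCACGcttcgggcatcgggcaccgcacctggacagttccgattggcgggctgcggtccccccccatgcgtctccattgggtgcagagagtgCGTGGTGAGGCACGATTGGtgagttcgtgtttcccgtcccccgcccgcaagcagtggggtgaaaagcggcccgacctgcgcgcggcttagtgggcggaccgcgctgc

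Among the 9 members with an ERSE match 5 rose (*Hspa5*, *Hsp90b1*, *Canx*, *Pdia6* and *Dnajc3*) and 0 fell, and the median log2 fold change was 0.58. Among the 25 matched members without it 10 rose and 8 fell, with a median of 0.25, beside 29.0% of all tested genes that were higher and 27.7% that were lower. After the correction the medians were 0.50 and 0.33, and 5 of the 9 and 10 of the 25 were higher, beside 18.4% of all tested genes. The 5 were then *Hspa5*, *Hsp90b1*, *Dnajc3*, *Creld2* and *Syvn1*, so *Canx* and *Pdia6* no longer passed. The 25 without a match held all 7 genes of the ATF4 arm, of which 5 fell as deposited, so the groups differed in their arms. Chaperones without a match rose as deposited as well, namely *Pdia3*, *P4hb*, *Dnajb9*, *Dnajc10* and *Sdf2l1*. *Derl3*, with a match, stood at -2.67 without passing the test. The related element ERSE-II, which is ATTGG, any 1 base and CCACG, was in 12 windows or 0.0365% of all, and its members were *Herpud1* and *Dnajb11*. The UPR element core TGACGTGG was in 0.676% of all windows and in 0 members, and the amino acid response element TGATGNAAT, known to bind ATF4, was in 0.965% of all windows and in 0 members. The E-box CACGTG, the site that BMAL1 and its partner CLOCK are known to bind, was in 7.15% of all windows and in 4 members, *Calr*, *Derl3*, *Dnajb9* and *Atf6b*. Of these *Dnajb9* rose, *Atf6b* fell, and the other two did not pass the test. After the correction neither *Dnajb9* (0.38) nor *Atf6b* (0.18, with its sign changed) passed, and the other two did not either. A match describes the letters in a window and is not a measurement of binding, and a window without one says nothing about the factor.

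Of the 16 chaperones and folding enzymes 11 rose as deposited and 7 after the correction, beside 29.0% and 18.4% of all tested genes. Their normalized counts summed to 63242 and 60518 in the controls and to 112030 and 121790 in the cKO mice, and 13 of the 16 were higher without overlap between the groups, where 40.3% of all tested genes were higher without overlap and 41.7% lower. *Hspa5* encodes BiP, the Hsp70 chaperone of the ER, which also holds the sensors inactive. Its normalized counts were 9029.5, 8594, 22129 and 25372. Both cKO mice lay far above both controls, with a log2 fold change of 1.43 (SE 0.13, adjusted p = 8.19e-04 by limma), or 2.7-fold between the means. *Hsp90b1*, the ER form of Hsp90 known as GRP94, had 7060.2, 5889, 16980 and 18888 normalized counts. It had the largest log2 fold change of the arm as deposited, 1.47 (SE 0.14, adjusted p = 8.94e-04 by limma), again without overlap. In *Hsp90b1* 15.7% of the exonic bases are shared with other annotated genes, in part on the opposite strand, and whether the authors counted by strand is not stated in the sources used here. After the correction *Hspa5* was at 0.94 (adjusted p = 0.00663 by limma) and *Hsp90b1* at 0.65 (adjusted p = 0.0186).

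The co-chaperones of BiP that carry a J domain followed *Hspa5* in part. *Dnajc3*, known as p58IPK and as an inhibitor of PERK, had 2046, 1957, 4403 and 5078 normalized counts and rose by 1.24 on the log2 scale (SE 0.11, adjusted p = 7.28e-04 by limma). The cKO mice were above the controls without overlap, and the gene passed the test after the correction too, at 0.50 (adjusted p = 0.0171). *Dnajb9*, which binds misfolded chains and restrains IRE1, had 552, 700, 1511 and 1542 normalized counts and rose by 1.29 (adjusted p = 0.00122 by limma). Its GC content of 40.6% was the lowest of all members, and its corrected log2 fold change was 0.38 (adjusted p = 0.0796). *Dnajc10*, a reductase for chains on the way to degradation, rose by 0.90 and stood at 0.33 (adjusted p = 0.0782) after the correction. *Dnajb11*, a BiP partner in folding, had a log2 fold change of 0.28 (adjusted p = 0.0875 by limma) and did not pass the test with or without the correction.

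Of the lectin chaperones 1 rose as deposited and 0 passed after the correction by limma, beside 29.0% and 18.4% of all tested genes. *Canx* encodes calnexin, the membrane-bound lectin, and had 5072, 4887, 10186 and 11082 normalized counts. Both cKO mice lay above both controls, and it rose by 1.09 (SE 0.10, adjusted p = 8.92e-04 by limma), but with a GC content of 42.2% its corrected value was 0.27 (adjusted p = 0.0832). *Calr* encodes calreticulin, its soluble relative, and had 9325, 8391, 9987 and 11100 normalized counts. Its log2 fold change was 0.25 with a 95% interval from -0.05 to 0.55, and 0.25 after the correction, and neither value passed the test.

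Of the protein disulfide isomerases 3 of 4 rose as deposited, and 1 of them, *P4hb*, passed after the correction too, beside 29.0% and 18.4% of all tested genes. *P4hb*, the main oxidoreductase of the ER and a subunit of the enzyme that hydroxylates collagen, had 9008, 9935, 17942 and 17327 normalized counts. It rose by 0.90 (SE 0.12, adjusted p = 0.00230 by limma) and by 1.38 after the correction (adjusted p = 0.00311), with a GC content of 53.8%. *Pdia3*, which works with calnexin and calreticulin, rose by 0.54 and *Pdia6* by 0.58 (adjusted p = 0.00868 and 0.0163 by limma), and neither passed after the correction, at 0.20 and 0.46. *Pdia4* overlapped between the groups, with 1866, 1603, 1758 and 2159 normalized counts, and its log2 fold change was 0.17 as deposited and -0.080 after the correction. Among the remaining genes *Hyou1*, a nucleotide exchange factor for BiP, rose by 0.63 (adjusted p = 0.00412 by limma) and *Sdf2l1*, a BiP cofactor, by 0.54 (adjusted p = 0.0447). After the correction they stood at 0.89 and 1.44, and *Creld2*, an ER stress gene, passed only then, at 1.04 (adjusted p = 0.0179) against 0.40 before. *Manf*, a secreted ER stress factor, overlapped between the groups at a log2 fold change of -0.10, or 0.03 after the correction.

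Per kilobase of exon, the most abundant chaperones in the controls were *P4hb* at 3310.5, *Calr* at 3076, *Pdia3* at 2588 and *Hspa5* at 2084 normalized counts, with *Hsp90b1* at 1606 and *Canx* at 1061. In the cKO mice the order was *P4hb* at 6164, *Hspa5* at 5616, *Hsp90b1* at 4448, *Pdia3* at 3770.2 and *Calr* at 3661. These levels per length are as deposited, with no correction for GC content, and their order was not tested.

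The goblet and plasma cell lists, which mark secretory cells, were at lower sums in the cKO mice while the chaperones were higher, and the absorptive colonocyte list was at higher sums, but not without *Aqp4*, as given above. Of 12 goblet markers 6 were lower as deposited, and after the correction 4 were lower and 1 higher. Of 11 plasma cell markers 2 were lower as deposited and 0 after the correction, and control mouse 1 held most of their sum. Of all tested genes 27.7% were lower, or 17.6% after the correction. The part of these cells in the chaperone values was not tested. When each mouse was left out in turn, between 8 and 10 chaperones were higher, beside 2654 to 3154 of the 13983 tested genes, and the median log2 fold change of the chaperones lay between 0.54 and 0.72.

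The genes of ER-associated degradation, which take misfolded chains back to the cytosol for the proteasome, summed to 11862, 12800, 20682 and 20002 normalized counts. Of the 10, 5 were higher and 1 was lower as deposited, beside 29.0% and 27.7% of all tested genes, and 8 were higher and 1 was lower after the correction, beside 18.4% and 17.6%. *Edem1*, a lectin that picks out misfolded glycoproteins by their trimmed mannose, had 1925, 2065, 5165 and 5162 normalized counts. The cKO mice were nearly equal to each other and lay above both controls, with a log2 fold change of 1.37 (SE 0.09, adjusted p = 5.33e-04 by limma) and a corrected one of 0.92 (adjusted p = 0.00352). Its relative *Edem3* had 1459, 1710.2, 3293 and 3432 normalized counts and rose by 1.09 (adjusted p = 0.00108 by limma), and by 0.36 after the correction (adjusted p = 0.0497). *Edem2*, which trims the first mannose, stood at 0.25 (adjusted p = 0.0890) and passed only after the correction, at 0.66 (adjusted p = 0.00874 by limma).

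The derlins are channel proteins for the chains that leave the ER. *Derl2* had 778, 838, 1846 and 1714 normalized counts and rose by 1.14 (SE 0.10, adjusted p = 7.28e-04 by limma), and *Derl1* rose by 0.85 (adjusted p = 0.00106). After the correction they stood at 0.34 (adjusted p = 0.0442) and 0.77 (adjusted p = 0.00455 by limma). *Derl3* went the other way with few reads, at 49.8, 11.01, 3.09 and 2.70 normalized counts. It was highest in control mouse 1, and its 72 reads in the controls against 5 in the cKO mice gave a ratio of 10.4 with a 95% interval from 4.27 to 33.1, which covers counting error only. Its log2 fold change of -2.67 (SE 0.92) did not pass the test (adjusted p = 0.0541 by limma). When each mouse was left out in turn, this value ranged from -3.71 to -1.63. *Derl3* is known to be strongly expressed in plasma cells, and in the same control library *Igha*, the IgA heavy chain, had 34580 normalized counts against 565, 195 and 239 in the other libraries; whether *Derl3* followed these cells was not tested.

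The ubiquitin ligase complex at the ER membrane is built from *Syvn1*, the ligase HRD1, and *Sel1l*, its adaptor. *Sel1l* had 1494, 1639.9, 3063 and 2724 normalized counts and rose by 0.88 (SE 0.11, adjusted p = 0.00174 by limma), and by 0.58 after the correction (adjusted p = 0.0116). *Syvn1* overlapped between the groups, with 916, 884, 890 and 654 normalized counts. Its log2 fold change was -0.24 (adjusted p = 0.256 by limma) as deposited and 0.59 (adjusted p = 0.0256) after the correction, a change of sign in a gene with a GC content of 56.6%. *Herpud1*, which gathers the complex, likewise passed only after the correction, at 0.58 (adjusted p = 0.0204 by limma) against 0.21 before. *Os9*, the lectin that delivers glycoproteins to the complex, was the member of the arm that fell. It had 1234, 1291, 515 and 558 normalized counts, so both cKO mice were below both controls, with a log2 fold change of -1.23 (SE 0.10, adjusted p = 6.66e-04 by limma). With a GC content as high as that of *Syvn1*, it stood at -0.39 after the correction (adjusted p = 0.0380).

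**Figure D2:**
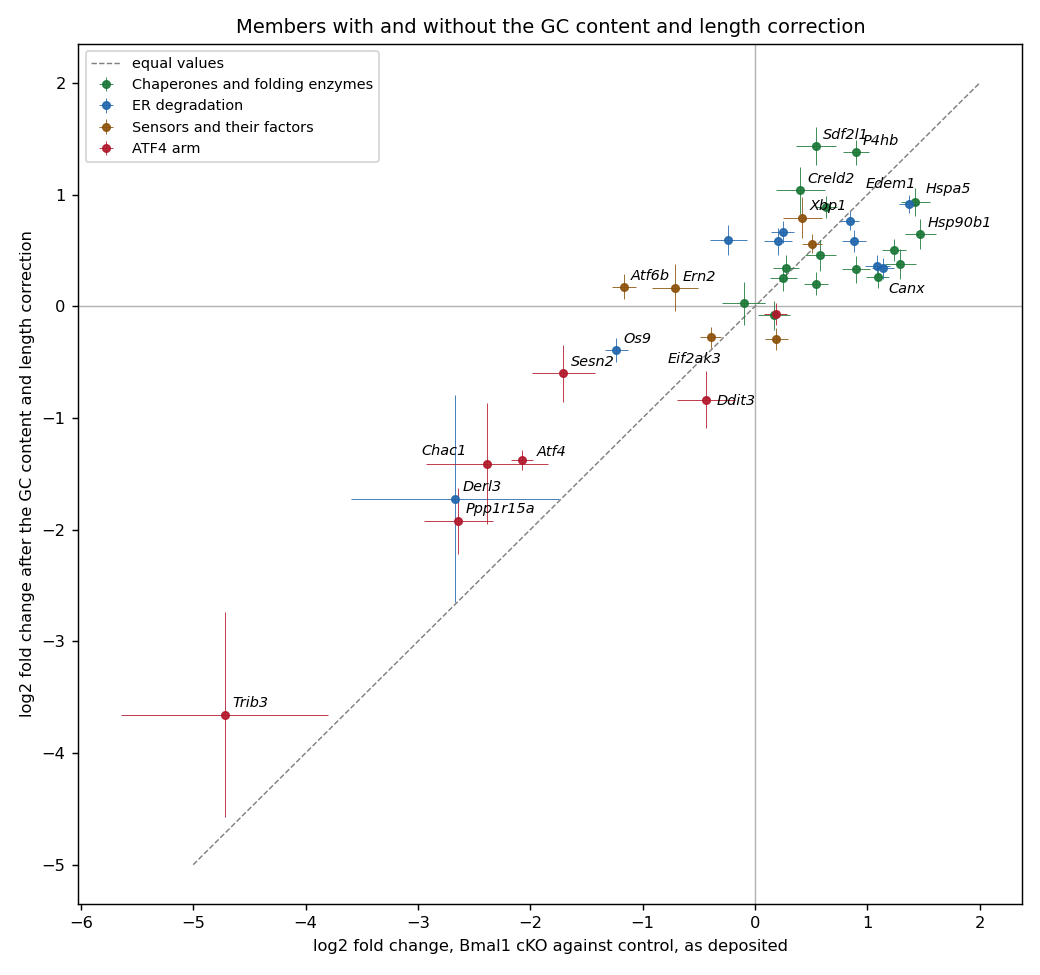
Log2 fold change of each of the 39 genes as deposited (horizontal axis) against the value after correction for GC content and length (vertical axis), coloured by arm, with bars of 1 standard error on both axes and a dashed line of equal values. *Hspa5*, *Hsp90b1* and *Edem1* lay above 0 on both axes, *Atf4*, *Ppp1r15a* and *Trib3* lay below 0 on both, and *Atf6b* and *Ern2* changed sign.

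Of the 6 sensors and their factors 1 rose and 3 fell, *Atf6b* 2.25-fold between the means, while after the correction by limma 2 rose and 0 fell (2 at an unadjusted p under 0.05). Of all tested genes 29.0% were higher and 27.7% lower as deposited, and 18.4% and 17.6% after the correction. Their normalized counts summed to 7880 and 7652 in the controls and 7675 and 8737 in the cKO mice. *Xbp1*, the factor of the IRE1 branch and the most abundant gene of the arm, had 3280.5, 2476, 3445 and 4236 normalized counts. Both cKO mice were above both controls, yet the log2 fold change of 0.42 (SE 0.17, adjusted p = 0.0883 by limma) did not pass the test, and the corrected value of 0.80 did (adjusted p = 0.0255). The counts are sums over the gene and do not separate spliced from unspliced *Xbp1* mRNA. *Ern1*, the widely expressed IRE1α, had 937, 977, 1355 and 1376 normalized counts and rose by 0.51 (SE 0.09, adjusted p = 0.00584 by limma), and by 0.56 after the correction (adjusted p = 0.00883). *Ern2*, the IRE1β of mucus-making epithelium, had 921, 1376, 649 and 730 normalized counts and fell by 0.71 on the log2 scale (adjusted p = 0.0313 by limma). Its level was highest in control mouse 2, where the summed goblet markers were highest as well, and its corrected log2 fold change was 0.17 (adjusted p = 0.561). The part of the goblet cells in the values of *Ern2* was not tested.

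*Atf6* and *Atf6b* encode related membrane-bound factors. *Atf6* had a log2 fold change of 0.19 (adjusted p = 0.163 by limma) and of -0.29 (adjusted p = 0.0660) after the correction. *Atf6b* had 720, 728, 320 and 323 normalized counts, and the replicates were nearly equal within each group. It fell by 1.17 on the log2 scale (SE 0.11, adjusted p = 8.41e-04 by limma), but its GC content of 60.3% was the highest of all members and its corrected value was 0.18 (adjusted p = 0.259). *Eif2ak3*, which encodes PERK, had 935, 956, 711 and 729 normalized counts and fell by 0.39 (adjusted p = 0.0165 by limma), with -0.28 after the correction (adjusted p = 0.0638). How many of the 3 sensor genes passed as lower depended on the mouse left out, as given in the closing section. The median log2 fold change of the sensors then lay between -0.15 and -0.05.

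The ATF4 arm had the lowest median of the 4 arms. It summed to 4075 and 3974 normalized counts in the controls and to 1964 and 1933 in the cKO mice, and 5 of 7 fell as deposited, beside 27.7% of all tested genes, and 3 after the correction, beside 17.6%. The same 5 fell by at least 2-fold, as did 18.6% of all tested genes. *Trib3* and *Chac1*, among the 5, reached the mean of 10 needed for the test only through the controls, and *Trib3* is also among the 3. With a mean of at least 50 required, 3 of the arm and 3216 genes in all were lower, and the median of the arm was -1.71. *Atf4* itself had 2344, 2176, 542 and 530 normalized counts. The replicates differed little and the groups lay far apart, with a log2 fold change of -2.07 (SE 0.09, adjusted p = 5.33e-04 by limma), or 4.22-fold between the means. After the correction it was -1.37 (adjusted p = 0.00281). The transcript level does not show how much ATF4 protein was made, since ATF4 is known to be controlled at translation.

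*Ppp1r15a*, known as GADD34, brings the phosphatase that reverses eIF2α phosphorylation. It had 219, 296, 49.4 and 32.4 normalized counts, with no overlap, and a log2 fold change of -2.64 (SE 0.31, adjusted p = 0.00163 by limma), or -1.92 after the correction (adjusted p = 0.00911). *Trib3*, a pseudokinase that binds ATF4 and restrains it, had 23.7 and 27.1 normalized counts in the controls and 0 in both cKO mice. Its 60 reads in the controls against 0 placed it at least 7.11-fold lower, taking 3 reads per library as the smallest detectable amount (adjusted p = 0.00872 by limma, and 0.0316 after the correction). *Trib3* reached the mean of 10 needed for the test only through the controls. *Chac1*, which breaks down glutathione, had 36.3, 33.9, 5.14 and 6.76 normalized counts. Its 83 reads against 10 gave a ratio of 6.01 between the groups, with a 95% interval from 3.11 to 13.0 for counting error only. *Chac1* fell by 2.39 on the log2 scale (adjusted p = 0.0147 by limma), and its corrected value of -1.41 did not pass (adjusted p = 0.0959). Like *Trib3*, it was tested only because of its level in the controls. *Sesn2*, a stress gene that restrains mTORC1, had 245, 338, 107 and 71.6 normalized counts and fell by 1.71 (adjusted p = 0.00491 by limma), with -0.60 after the correction (adjusted p = 0.123).

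The remaining genes of the arm did not pass in either form. *Ddit3*, the death-related factor CHOP, had 80.3, 90.6, 64.8 and 60.8 normalized counts, with the cKO mice below the controls. Its log2 fold change was -0.44 with a 95% interval from -1.08 to 0.21 (adjusted p = 0.196 by limma), and -0.83 after the correction (adjusted p = 0.0549). Of its exonic bases 10.9%, or 186, are shared with other annotation entries, 105 of them with a second entry also named *Ddit3*. *Asns*, the asparagine synthetase that is a classic target of ATF4, had 1127, 1011, 1195 and 1231 normalized counts. Its values were slightly higher in the cKO mice, with a log2 fold change of 0.18 (adjusted p = 0.164 by limma) and -0.07 after the correction, while *Atf4* fell 4.22-fold in the same libraries. The leukocyte, fibroblast, endothelial and smooth muscle lists were lower in the same libraries as the ATF4 arm, with the sums given above, and the part of those cells in the values of the arm was not tested.

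The 9 members that fell had a GC content between 51.2% and 60.3%, and 8 of them were over 55%. The median GC content was 48.2% in the chaperones, 51.1% in the degradation genes, 52.1% in the sensors and 55.7% in the ATF4 arm, beside 49.5% over all genes. In the class of all genes with a GC content from 55.24% to 57.56%, 58.5% were lower and 1.86% were higher, with a median of -0.82. Of the 8 members in this class *Atf4*, *Ppp1r15a*, *Chac1*, *Derl3* and *Os9* lay below this median, *Ern2* at -0.71 and *Syvn1* at -0.24 lay above it without rising, and *Sdf2l1* rose. In the class from 43.74% to 45.77%, 51.4% were higher with a median of 0.57, and *Hspa5* at 1.43 and *Dnajc10* at 0.90 lay above it while *Ddit3* at -0.44 lay below.

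**Figure D3:**
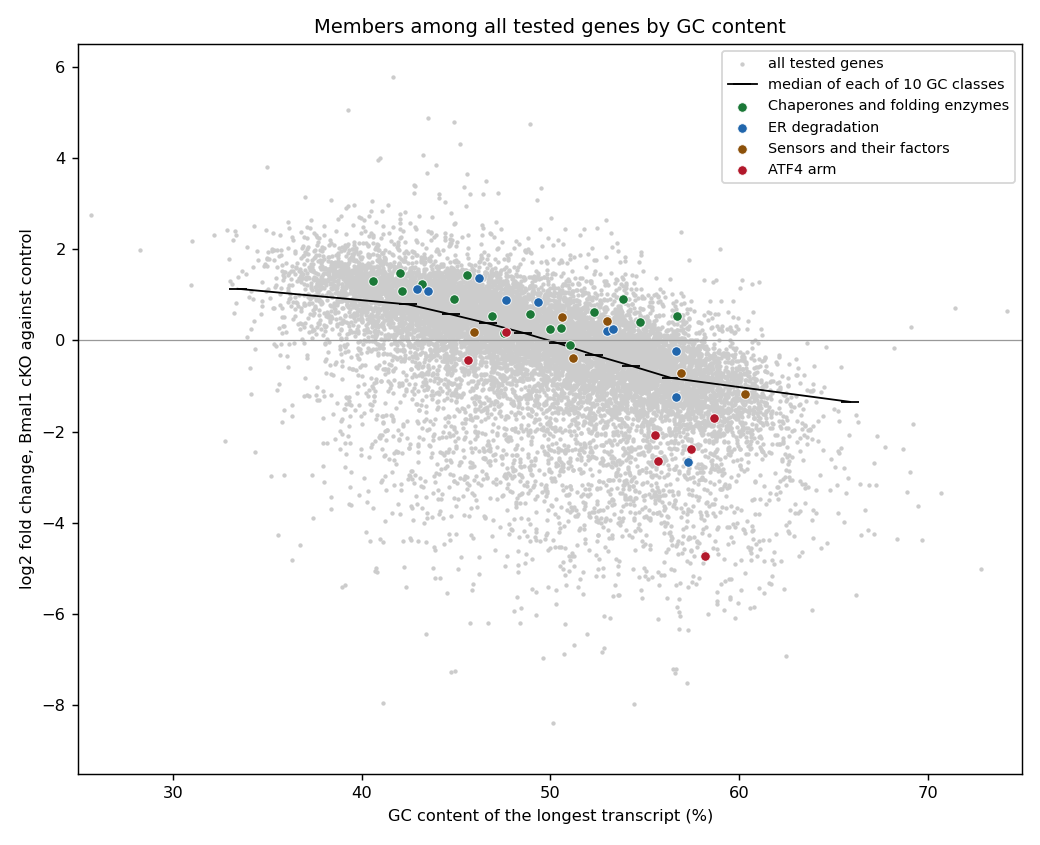
Log2 fold change of all tested genes (grey) and of the 39 genes (coloured by arm) against the GC content in percent of the longest transcript, with a black line through the medians of 10 classes of equal size. The medians fell from 1.13 to -1.35 with rising GC content, and *Atf4*, *Ppp1r15a* and *Trib3* lay below the line while most chaperones lay above it.

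The rest of the pathway, in longer lists of genes that were not members, was described in the same way, and its counts are to be read beside the 29.0% of all tested genes that were higher and the 27.7% that were lower, or 18.4% and 17.6% after the correction. Among 48 other folding genes 20 were higher and 10 lower, with a median of 0.38, and after the correction 13 were higher and 4 lower. *Tmx3*, a membrane-bound disulfide isomerase, had 824, 667, 3102 and 2899 normalized counts and rose by 2.01, *Hspa13*, an Hsp70 relative, rose by 1.71 and *Erp44*, which retains oxidoreductases in the early secretory pathway, by 1.49 (adjusted p = 5.33e-04 by limma for each). After the correction these rises were 0.59, 0.64 and 0.64, and each still passed. *Cnpy3*, a co-chaperone of GRP94, fell by 1.22 on the log2 scale, *Erp29*, a folding factor, by 1.03 and *Fkbp2*, a prolyl isomerase, by 0.98. Of these falls only that of *Erp29* passed after the correction, at -1.50, while *Cnpy3* stood at -0.25 and *Fkbp2* turned to 0.78, which passed as higher.

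Among 42 other degradation genes 20 were higher and 8 lower, with a median of 0.28, and 15 and 6 after the correction. *Yod1*, a deubiquitinase that works with the p97 ATPase, had 174, 169, 759 and 722 normalized counts and rose by 2.10 (adjusted p = 5.33e-04 by limma). *Svip*, a p97 inhibitor, rose by 1.99 and *Ngly1*, which removes sugar chains from exported proteins, by 1.46. After the correction the rises of *Yod1*, *Svip* and *Ngly1* were 0.98, 1.17 and 0.53, and each still passed. *Rnf5*, a ubiquitin ligase of the ER membrane, fell by 1.87, *Tmub1*, a ubiquitin-like membrane protein, by 1.36 and *Ube2j2*, a ubiquitin-conjugating enzyme, by 1.25, of which *Rnf5* and *Ube2j2* passed after the correction, at -1.47 and -1.16, and *Tmub1* at -0.29 did not.

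Among 28 other genes of the sensors and of the eIF2 machinery 10 were higher and 4 lower, with a median of 0.09, and after the correction 4 were higher and 2 lower. As deposited 35.7% of this list were higher and 14.3% lower. *Mbtps2*, the site-2 protease that cleaves ATF6, had 498, 430.3, 1280 and 1171 normalized counts and rose by 1.40 (adjusted p = 7.23e-04 by limma), with 0.34 after the correction (adjusted p = 0.0756). *Nfyb*, a subunit of the factor that binds the CCAAT end of the ERSE, and *Eif2ak2*, the kinase PKR, each rose by 0.99, with 0.19 and 0.31 after the correction. *Creb3l1*, a stress factor related to ATF6, fell by 1.05, and *Eif2b2* and *Eif2b4*, subunits of the exchange factor for eIF2, by 0.76 and 0.54. After the correction *Creb3l1* and *Eif2b4* changed sign, to 0.18 and 0.32, *Eif2b2* stood at -0.11, and none of these 6 genes passed.

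Among 47 other genes of the ATF4 arm 8 were higher and 18 lower, with a median of -0.16, and after the correction 10 were higher and 10 lower. *Gdf15*, a stress cytokine, had 208, 228, 8.23 and 5.41 normalized counts and a log2 fold change of -4.83 (SE 0.37, adjusted p = 6.06e-04 by limma). *Cebpb*, a factor that pairs with ATF4 and is abundant in myeloid cells, had 819, 772, 31.9 and 52.7 and a log2 fold change of -4.24, and *Nupr1*, a stress factor, had 1388, 1309.5, 167 and 329.8 and one of -2.52. All 3 were lower in both cKO mice and passed after the correction, at -3.28, -1.71 and -2.52. *Slc38a2*, an amino acid transporter, went the other way, with 3401, 3119.7, 9371.5 and 9371.2 normalized counts and a rise of 1.52. *Cth*, which makes cysteine, rose by 1.36 and *Atg5*, an autophagy gene, by 1.16, and these 3 also passed after the correction, at 0.90, 0.78 and 0.63.

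**Figure D4:**
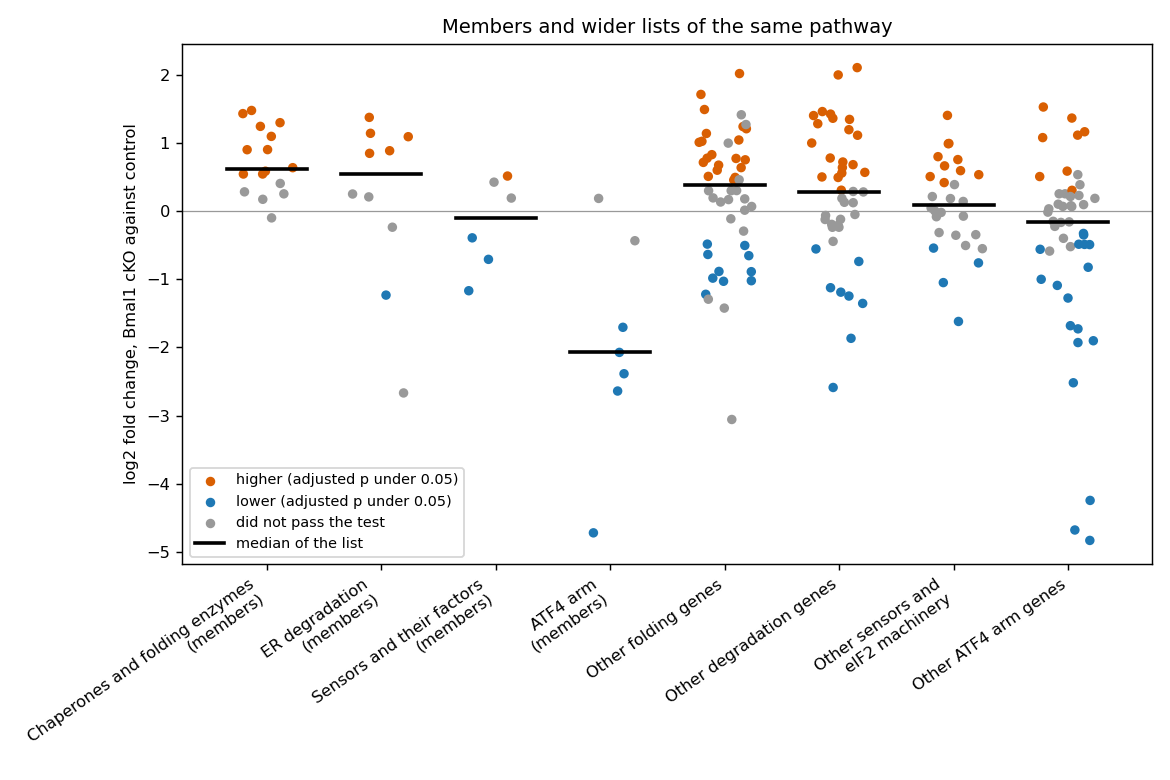
Log2 fold change of each tested gene of the 4 arms and of the 4 longer lists, with genes higher in the *Bmal1* cKO libraries in orange, lower ones in blue, those that did not pass the test in grey, and the median of each list as a bar. The member medians were 0.61, 0.55, -0.10 and -2.07 and those of the longer lists were 0.38, 0.28, 0.09 and -0.16.

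Across 15 other ways of processing, 11 members passed the test each time with 1 direction, of which 9 were higher and 2 lower, where 7.95% of all tested genes passed each time as higher and 5.90% as lower. These ways include a filter at a mean of 50, which tested genes with lower means could not pass, and this lowers both shares. The 11 members were *Hspa5*, *Hsp90b1*, *P4hb*, *Dnajc3*, *Hyou1*, *Sel1l*, *Edem1*, *Derl1* and *Ern1*, which were higher, and *Atf4* and *Ppp1r15a*, which were lower. *Hspa5* ranged from 0.94 to 1.53 on the log2 scale and *Atf4* from -2.30 to -1.37. The 7 members *Calr*, *Pdia4*, *Dnajb11*, *Manf*, *Atf6*, *Ddit3* and *Asns* passed in 0 of them.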

How the data were processed

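Bulk RNA sequencing of colonic epithelial cells from 2 control and 2 *Bmal1* cKO mice was used, grouped by the labels. The authors aligned reads to GRCm38 with STAR and normalized gene counts with DESeq2, and per library they deposited a signal, namely counts per gene over the library's size factor. The library kit is named differently in the labels and the methods, and the counter and annotation are not given in the sources used here. The authors' own fold changes and p-values were not used. The smallest listed mean was 3.39, so rarer genes were not analysed here. Of the listed genes 16008 matched GENCODE, which gave coordinates, GC content and exon length.

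In each library 100% of the values were whole multiples, within 0.1, of what 1 read is worth, so the reads could be recovered. Genes whose mean reached 10 were tested on log2(value + 1) by limma 3.58.1 (R 4.3.3) with a mean-variance trend. The correction was a loess fit (span 0.3) of each library on GC content and length. The quasi-likelihood test of edgeR 4.0.16 and DESeq2 1.42.0 were run on the reads as alternatives, beside other pseudocounts (0.5 and 5), filters, scalings, a replicate block and fits without each mouse. Replicates differed by more than sampling noise, with a chi-square per gene of 44.6 in the controls and 12.0 in the cKO mice. The steps were tested on simulated data.

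The 39 members and the longer lists were chosen with earlier results of these data known. Values per library were fixed for members past the threshold with a log2 fold change of at least 1 in size and for the most abundant member of each arm, and other members shown so were chosen after their values were seen. From the longer lists the 3 genes that rose and the 3 that fell most were named, among those with a mean of at least 100 that passed the test without overlap. Intervals on reads are exact and cover counting error only. Sequences are RefSeq's (GRCm38.p6).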

Additional observations from a re-analysis of the deposited data

How the results depend on the processing

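With 2 mice per group no outlier test was possible, and depth limits *Trib3*, *Chac1* and *Derl3*, which had 10 or fewer reads over both cKO mice. The replicate numbers were shared between groups only by name. The differences between mouse 1 and mouse 2 correlated at -0.0908 between the groups over 13983 genes, and with only 2 pairs this does not pair the mice. With the replicate block 3899 genes were higher and 3789 lower, and 10 chaperones, 5 degradation genes and 1 sensor gene were higher, and 0, 1 and 3 were lower, with 5 of the ATF4 arm lower. Over the alternatives, 276 counts and medians kept their side or size, 70 moved and 2 reversed, and of the single genes 857 kept their call and direction, 61 lost the call, 13 gained one and 26 reversed. The causes were not tested unless the setting itself removes genes or mice.

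After the GC content and length correction 2570 genes were higher (4059 without it) and 2458 lower (3871), 7 chaperones and 8 degradation genes were higher, 2 sensor genes were higher and 0 lower, and 3 of the ATF4 arm were lower. Of the longer lists 13 folding genes were higher and 4 lower, 4 sensor genes were higher and 2 lower, and 10 ATF4 genes were lower. The medians were 0.42 for the chaperones, 0.17 for the sensors, which reversed, and -1.37 for the ATF4 arm. *Pdia4* (-0.080), *Manf* (0.028), *Syvn1* (0.59), *Atf6* (-0.29), *Atf6b* (0.18), *Ern2* (0.17), *Asns* (-0.069), *Creb3l1* (0.18), *Fkbp2* (0.78) and *Eif2b4* (0.32) reversed. With the replicate block added to the correction the medians and reversed values were the same, 2177 genes were higher and 2077 lower, 7 chaperones were higher, 0 degradation genes were lower, 2 sensor genes were higher and 0 lower, and 2 of the ATF4 arm were lower. Of the longer lists 12 folding genes were then higher and 2 lower, and 4 sensor genes higher and 2 lower.

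At an adjusted p under 0.01, 2136 genes and 1 sensor gene were lower, 13 other folding genes were higher and 5 lower, and 6 other sensor genes were higher and 2 lower. Without a filter, and by edgeR or DESeq2, 2 degradation genes were lower, and the ATF4 median by edgeR was -2.09. Scaling by library total gave 2 degradation genes lower, 4885 genes lower and 3091 higher in all, a median over all genes of -0.26, arm medians of 0.38, 0.32, -0.33 and -2.30, 13 other degradation genes lower, and 7 other sensor genes lower and 6 higher. *Pdia4* (-0.055), *Herpud1* (-0.0195), *Atf6* (-0.037) and *Asns* (-0.042) reversed there. With a mean of at least 50 the ATF4 arm had 3 lower and a median of -1.71, since fewer of its genes were tested, and the degradation median was 0.85. With a pseudocount of 5 the ATF4 median was -1.88.

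Leaving out each mouse in turn left the lone mouse to vary as the other group. Genes lower ranged from 2205 to 2852 (2380 without control mouse 1, 2389 without cKO mouse 1 and 2205 without cKO mouse 2) and genes higher from 2654 to 3154, the lowest without cKO mouse 2. Sensor genes lower ranged from 1 to 2, with 1 without control mouse 2 or either cKO mouse, and degradation genes lower from 1 to 2, with 2 without control mouse 2. Of the longer lists, folding genes lower ranged from 5 to 6, degradation genes lower from 5 to 8, with 5 without either control, sensor genes lower from 2 to 3, with 2 without mouse 2 of either group, and sensor genes higher from 5 to 8, with 5 without cKO mouse 2. The medians ranged from 0.54 to 0.72 in the chaperones, from 0.51 to 0.59 in the degradation genes and from -2.13 to -2.02 in the ATF4 arm. *Manf* ranged from -0.31 to 0.11, and was above 0 without control mouse 1 (0.11) or cKO mouse 1 (0.07).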
